A study of Mus musculus with 4 samples.

Results

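The SOX3 peaks considered here are those of the common peak table whose nearest gene is Srsf7, Hnrnpk, Hnrnph1, Hnrnpa2b1 or Hnrnpu, genes of splicing factors and of heterogeneous nuclear ribonucleoproteins (hnRNPs). The gene name in the deposited table chose them, and 8 of the 778 common peaks, at 5 of its 656 nearest genes, met the rule. Their presence in the table is therefore no result, and their positions, classes and scores are given as a description. SOX3 was mapped by chromatin immunoprecipitation and sequencing (ChIP-seq) in testis of 129/SvJ mice at postnatal day 7, in 3 ChIP samples labelled as biological replicates and 1 input sample. Whether each came from 1 animal or from a pool is not stated in the labels. The antibody was a goat polyclonal raised against human SOX3. The labels describe the crossing of Sox3 null animals into this strain and do not give the genotype of the single testes. No ChIP from testis without SOX3 was analysed here, so the antibody's background at these genes was not measured. Peak lists hold no expression values, so the labelled tissue could not be checked against its markers.

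SR proteins, named for their stretches of serine and arginine, and hnRNPs bind nascent transcripts and steer which splice sites the spliceosome uses. SR proteins mostly favour the use of nearby splice sites from exonic sites, while hnRNPs often oppose it. Many genes of both families adjust their own output through exons that lead to transcript decay. Alternative splicing is extensive in the testis. SOX3 is an HMG box transcription factor that bends DNA at a short core, searched here as ACAAT, and in the testis it is known from early spermatogonia.

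The promoters of the 5 genes are shown because 7 of the 8 peaks had their midpoint no more than 504 bp from a start site. The RefSeq promoter table held all 5 genes, with 10 windows of 250 bases before to 50 after a gene start, on build GRCm38.p6. The peaks are in mm9, so no base below can be placed inside a peak. In mm9 the only Hnrnpu peak began 662 bp downstream of its start, the second Srsf7 peak 206 bp and the second Hnrnpa2b1 peak 358 bp. The wider Hnrnpk peak began 499 bp downstream of the start under the narrower one. The other peaks covered a start site. Where the starts of both builds match, peaks that began so far downstream lie beyond the windows. The 250 bases before the start are printed 5′ to 3′ on the gene's strand. Capitals mark 3 short motifs on either strand: ACAAT, the SOX core (ATTGT on the other strand), CCAAT, the CCAAT box (ATTGG), and GGGCGG, the GC box (CCGCCC). The windows are chr17:80207306-80207555 on the minus strand for Srsf7, chr13:58402118-58402367 on the minus strand for Hnrnpk, chr6:51469895-51470144 on the minus strand for Hnrnpa2b1 and chr1:178337816-178338065 on the minus strand for Hnrnpu. For Hnrnph1, on the plus strand, the first of 5 windows is chr11:50376740-50376989 and the second chr11:50377428-50377677.
Srsf7: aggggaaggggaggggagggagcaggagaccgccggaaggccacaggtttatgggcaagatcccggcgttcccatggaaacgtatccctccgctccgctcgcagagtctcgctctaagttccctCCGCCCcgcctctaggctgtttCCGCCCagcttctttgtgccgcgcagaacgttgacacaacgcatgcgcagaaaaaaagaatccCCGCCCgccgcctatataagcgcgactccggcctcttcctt
Hnrnpk: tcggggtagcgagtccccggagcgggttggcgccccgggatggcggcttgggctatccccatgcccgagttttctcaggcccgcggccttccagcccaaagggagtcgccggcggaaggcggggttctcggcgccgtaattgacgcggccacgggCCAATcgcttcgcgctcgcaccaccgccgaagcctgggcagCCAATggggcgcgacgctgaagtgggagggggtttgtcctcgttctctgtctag
Hnrnph1 first window: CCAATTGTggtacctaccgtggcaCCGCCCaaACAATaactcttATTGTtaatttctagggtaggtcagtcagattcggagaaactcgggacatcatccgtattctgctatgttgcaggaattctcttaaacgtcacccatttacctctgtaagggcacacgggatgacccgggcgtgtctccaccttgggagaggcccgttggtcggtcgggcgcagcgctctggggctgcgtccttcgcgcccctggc
Hnrnph1 second window: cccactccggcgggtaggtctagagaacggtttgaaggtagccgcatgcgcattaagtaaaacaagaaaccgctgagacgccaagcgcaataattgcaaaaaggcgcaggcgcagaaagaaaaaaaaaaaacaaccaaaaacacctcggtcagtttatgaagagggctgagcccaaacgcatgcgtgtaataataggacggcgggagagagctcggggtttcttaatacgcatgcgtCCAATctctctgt
Hnrnpa2b1: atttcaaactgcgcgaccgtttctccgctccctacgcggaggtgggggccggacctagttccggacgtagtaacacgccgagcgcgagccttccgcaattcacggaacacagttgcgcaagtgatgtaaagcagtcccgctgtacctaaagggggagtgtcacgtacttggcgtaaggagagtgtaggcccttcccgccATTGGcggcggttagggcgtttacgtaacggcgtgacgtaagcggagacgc
Hnrnpu: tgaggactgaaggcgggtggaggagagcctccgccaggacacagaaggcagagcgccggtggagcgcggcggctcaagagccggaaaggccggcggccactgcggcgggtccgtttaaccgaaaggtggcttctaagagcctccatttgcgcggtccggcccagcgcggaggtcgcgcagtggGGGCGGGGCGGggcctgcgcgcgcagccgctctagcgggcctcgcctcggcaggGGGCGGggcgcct

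The SOX core was found at Hnrnph1 alone among the 5 genes, against 34.4% of the 27018 genes of the promoter table and 31.3% of its 17486 protein-coding genes. In its first window the core stood 3 times. A forward match ran from -218 to -214, counted with the start as 0, and a reverse match from -206 to -202, so that ACAAT was followed by ATTGT on the gene's strand. The third, from -247 to -243, overlapped a CCAAT box. A further reverse core stood from -246 to -242 of the fourth window, which is not printed. Hnrnph1 has 5 windows and thus more sequence to hold a match. The deposited table names the transcript whose start lies under the peak, but the windows of the RefSeq table carry no transcript names, so its window was not identified here. Srsf7, Hnrnpk, Hnrnpa2b1 and Hnrnpu had no ACAAT in any window. No match says only that these letters are not in the window, and the sequence of the peaks was not searched. The cores of Hnrnph1 lie outside the window if it is cut to 100 bases before to 50 after the start.

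The CCAAT box was present at 3 of the 5 genes, Hnrnpk, Hnrnph1 and Hnrnpa2b1, against 41.1% of all genes of the table and 42.3% of the protein-coding ones. At Hnrnpk it stood forward at -95 to -91 and -54 to -50, and at Hnrnpa2b1 reversed at -51 to -47. The GC box was present at Srsf7, Hnrnph1 and Hnrnpu, again 3 of 5, against 38.2% of all genes and 49.2% of the protein-coding ones. Srsf7 held 3 of them between -126 and -36, and Hnrnpu held 4 from -67 to 22, of which the first pair overlapped. Of other non-histone genes with a common peak no farther than 1000 bp from the start (58), 46.6% held CCAAT and 77.6% GGGCGG. Of histone genes with such a peak (32), 75% and 40.6% did. The ETS core CCGGAAG was at Srsf7 alone, against 9.93% of all genes and 32.8% of the 58. AACAAT was at Hnrnph1 alone (12.2% of all genes), and ACAATGG at none of the 5 (4.15%). With 5 genes, no share was read as a difference.

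The promoter windows of the 5 genes were rich in CpG dinucleotides. The ratio of observed to expected CpG ran from 0.795 to 1.28 over the 10 windows, with a median of 1.03. The median was 0.384 over all 32841 windows of the table and 0.567 over the 21255 of protein-coding genes, as all 5 genes are. The highest was Hnrnpa2b1, whose first window lay at percentile 99.9, and the lowest the fifth window of Hnrnph1, at percentile 78.6. GC content ran from 53.3 to 72.7%, with the second window of Hnrnph1 lowest and Hnrnpu highest, with a median of 61.8%, against medians of 52.7% over all windows and 56.3% over those of protein-coding genes. Windows of one gene can overlap and are not independent. The other non-histone genes with a start site peak, meaning a common peak no farther than 1000 bp from it, had medians of 62.3% GC and a CpG ratio of 0.816 (78 windows). Histone genes with such a peak had 47.2% and 0.740 (32 windows). These medians are set side by side and their differences were not tested.

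**Figure D1:**
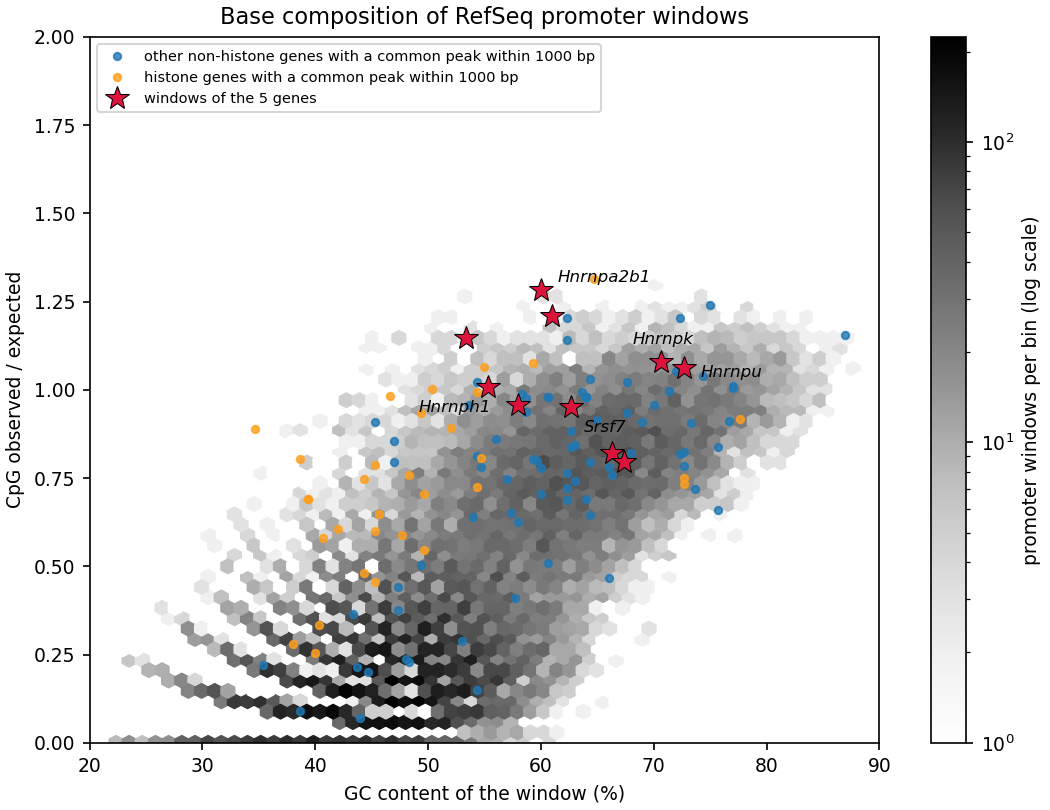
GC content (x axis, percent) against the observed to expected CpG ratio (y axis) of RefSeq promoter windows. Grey bins count all 32841 windows on a log scale, stars are the 10 windows of the 5 genes, and points are other genes with a common peak no farther than 1000 bp from the start. The stars lie between 0.795 and 1.28 on the y axis.

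Srsf7 encodes an SR protein that acts in splicing and in the export of mRNA. Its start site peak on chromosome 17 ranked highest of the 8 peaks in replicates 2 and 3, but below those of Hnrnpu, Hnrnpk and Hnrnpa2b1 in replicate 1. The common peak from 80606474 to 80606939 (mm9) was of the promoter class, with its midpoint 61 bp upstream of the transcription start site (TSS). The authors' score, a value per peak that is meaningful only within its own list, was 112, 116 and 255 in replicates 1, 2 and 3. These peaks ranked 186 of 2912, 162 of 2598 and 48 of 2734, which are percentiles 93.6, 93.8 and 98.3 of their lists. All 3 replicate peaks covered the TSS, and each pair overlapped by 260 bp or more.

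A second Srsf7 common peak, from 80606237 to 80606439, lay 307 bp downstream in intron 1 of 7 and in a CpG island. Replicate 2 held it as a separate peak with a score of 67.3. Replicate 3 entered it through the edge of the same wide peak that covers the TSS, by an overlap of 26 bp, and replicate 1 had no peak there. Its 255 in replicate 3 is thus the score of the start site peak counted again. With each replicate peak counted for a single common peak, this site was in 1 list.

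Hnrnpk encodes an hnRNP that binds runs of cytosine through KH domains. It had a pair of common peaks on chromosome 13, both classed at a promoter under a transcript of Rmi1, a subunit of the complex that dissolves recombination intermediates. Rmi1 stands next to Hnrnpk on the opposite strand, and the gene bodies overlap in the RefSeq table. The deposited table thus names Hnrnpk as the nearest gene and a transcript of Rmi1 for the promoter class.

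The wider Hnrnpk peak, from 58502821 to 58503374, lay 433 bp downstream of an Hnrnpk TSS, with scores of 161, 53.6 and 91.4 in replicates 1, 2 and 3. Their percentiles were 96.6, 67.1 and 91.8, so replicate 2 was the lowest. The peak of replicate 1 spanned 554 bp and contained both others, which overlapped each other by 11 bp. The narrower peak, from 58503774 to 58503940, covered a start 343 bp further upstream, at 16 bp from its midpoint. It scored 43.8 in replicate 1 and 74.7 in replicate 3, percentiles 29.5 and 87.6, and replicate 2 had no peak there. Replicate 3 alone had a further peak between them, from 58503521 to 58503719, with a score of 53.2, which is in no common peak.

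Hnrnph1 encodes an hnRNP that binds runs of guanine. Its common peak on chromosome 11, from 50191164 to 50191410, was of the promoter class and lay 66 bp downstream of the TSS. The score was 71.0 in replicate 2 and 76.6 in replicate 3, percentiles 84.0 and 88.1. The peaks of these replicates overlapped by 201 bp and both covered the TSS. Replicate 1 had 0 peaks within 50000 bp of this start.

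Hnrnpa2b1 encodes an hnRNP with RNA recognition motifs that acts in splicing and in the transport of mRNA. Its common peaks lay on chromosome 6, next to Cbx3, which encodes the heterochromatin protein HP1 gamma and is transcribed away from it on the opposite strand. The peak from 51419691 to 51420373, with its midpoint 139 bp upstream of the Hnrnpa2b1 TSS, was classed at a promoter under a Cbx3 transcript. Its scores were 149, 44.6 and 41.3 in replicates 1, 2 and 3, at percentiles 96.1, 33.1 and 8.87. It was thus strong in replicate 1 and among the weak peaks of the other lists.

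The 3 lists did not hold the same place there. The replicate 1 peak reached from 480 bp upstream to 202 bp downstream of the TSS and contained that of replicate 2. The replicate 3 peak touched it by 36 bp and lay 36 bp apart from that of replicate 2. The second common peak, from 51419243 to 51419535, lay 504 bp downstream in intron 1 of 10 and in a CpG island. It scored 85.9 in replicate 2 and 47.6 in replicate 3, percentiles 89.5 and 51.3, with no peak in replicate 1. Replicate 1 alone had a weak peak 8656 bp upstream of the TSS, with a score of 41.4.

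Hnrnpu encodes the scaffold attachment factor that ties RNA to chromatin. Its common peak was the farthest from a start, on chromosome 1 from 180266686 to 180267253, 946 bp downstream in intron 1 of 13 and in a CpG island. The scores were 163 in replicate 1 and 86.2 in replicate 3, percentiles 96.7 and 90.7, and replicate 2 had no peak within 5000 bp of the TSS. The replicate 1 peak contained the whole 275 bp of the replicate 3 peak.

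The neighbouring gene Cox20, which encodes an assembly factor of cytochrome c oxidase and is transcribed on the opposite strand, had 4 common peaks between 1919 and 3796 bp downstream of its own TSS. They began 13476 to 15109 bp from the Hnrnpu peak. The strongest, from 180250831 to 180251576 in intron 1 of 3, scored 174, 238 and 210.1 in replicates 1, 2 and 3, at percentiles 97.0, 97.8 and 97.6. Replicate 2, without a peak at Hnrnpu, thus held one at Cox20. Of the 32 replicate peaks within 50000 bp of the 5 starts, 11 were at Cox20, 19 lay within 1000 bp of a start, and 3 were in no common peak.

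**Figure D2:**
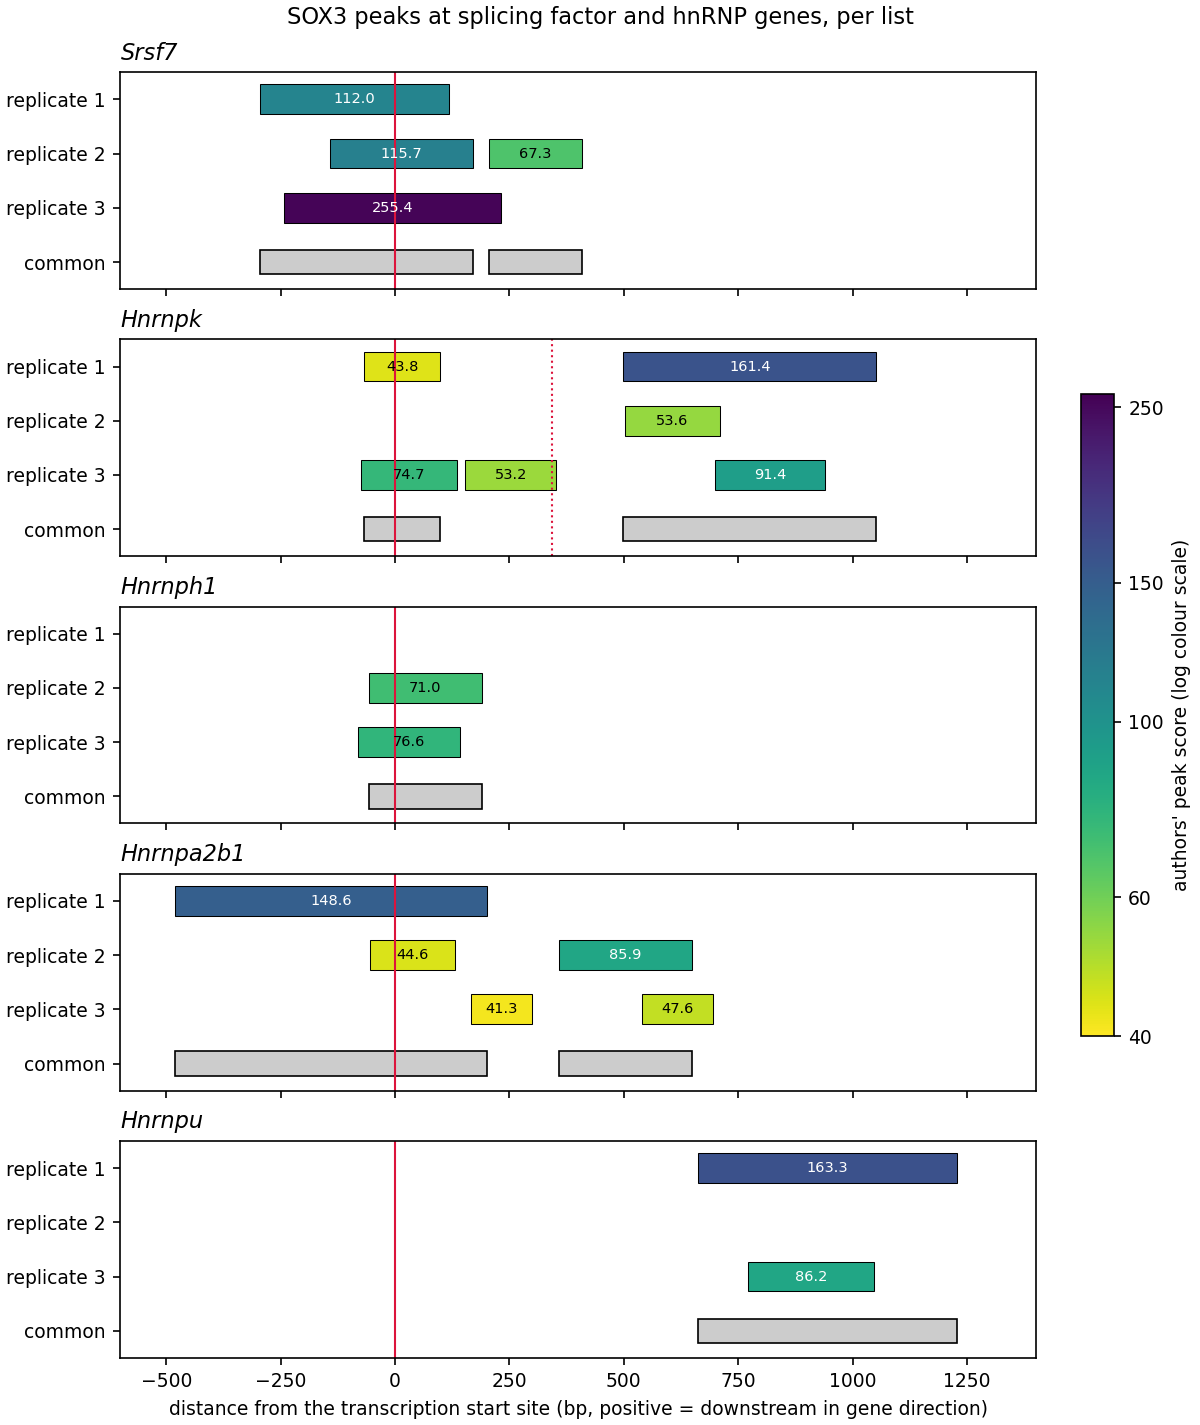
Peaks of the 3 SOX3 ChIP replicates (coloured bars with the authors' score, log colour scale) and the common peaks (grey) by distance from the TSS in bp along the gene's direction (x axis), 1 panel per gene. The solid line is the TSS nearest to a common peak and the dotted line a second Hnrnpk start 343 bp away. All 3 replicate bars cross the line at Srsf7, and at Hnrnpu the bars of replicates 1 and 3 start 662 bp or more downstream.

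All 8 peaks lay at most 1000 bp from a TSS, against 17.2% of the common peaks, and the choice of genes fixed this. By the deposited classes 5 were at promoters and 3 in the first intron. Of all 778 common peaks, 85 were of the promoter class and 241 in any intron. Of the 5 at promoters, 3 were classed under a transcript of another gene than the nearest one (Rmi1 or Cbx3), against 26.3% of the 76 promoter peaks whose transcript was in the RefSeq table. All 3 intronic peaks carried the CpG island label, against 2.96% of the common peaks and 4.98% of the 241 intronic ones. Of the 11 other intronic common peaks no farther than 1000 bp from a TSS, 7 carried it. None of the 3 carried a repeat label, which 72 of the 241 intronic common peaks did (29.9%). Promoter peaks carry neither label in the deposited table. In 6 of the 8 the midpoint was downstream of the TSS, and their median distance was 186.5 bp downstream. Medians also lay downstream for the other peaks no farther than 1000 bp from a TSS. They were 176.5 bp at histone genes and 4.5 bp at non-histone genes. Over all common peaks, at any distance, the median was 197 bp downstream. Srsf7, Hnrnpk and Hnrnpa2b1 had 2 common peaks each, while 27 of the 173 genes with a common peak within 5000 bp (15.6%) had more than 1.

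Of the 8 peaks, 3 were in all 3 lists, at Srsf7, Hnrnpk and Hnrnpa2b1, against 29.9% of the common peaks. Of the other non-histone peaks at this distance 35 of 84 were in all 3 lists (41.7%), and of those at histone genes 27 of 42 (64.3%). Replicate 1 held 5 of the 8, replicate 2 held 6 and replicate 3 all 8, so 19 of 24 places were filled. Of all 778 common peaks, replicates 1, 2 and 3 held 620, 576 and 593, so there replicate 1 held the most. With each replicate peak counted once, replicate 3 held 7 of the 8 and 581 of the 778, and 18 of the 24 places were filled. Without replicate 1, 6 of the 8 were in both remaining lists (50.3% of the common peaks), without replicate 2, 5 were (55.9%), and without replicate 3, 3 were (53.7%). With a 50% reciprocal overlap only the Srsf7 start site peak was in all 3 lists (19.9% of the common peaks), and with scores of 100 or more, again that peak alone (10.7%). By gene, a peak within 1000 bp of the start was found in all 3 lists at Srsf7, Hnrnpk and Hnrnpa2b1 and in 2 lists at Hnrnph1 and Hnrnpu.

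With each replicate peak counted once, so that the second Srsf7 peak has only its own value in replicate 2, the best percentile of the 8 peaks had a median of 92.8 (range 82.0 to 98.3). On the same count the median was 85.7 for the other non-histone peaks no farther than 1000 bp from a TSS, 93.5 for those at histone genes and 87.4 for all common peaks. With the start site peak counted for both Srsf7 sites, the median of the 8 was 96.4 (range 87.6 to 98.3), so its order against the histone genes rests on that repeat. The peaks were chosen from this table, so no test was made. With the repeated peak included, the median percentile within the lists was 96.1, 83.0 and 89.4 in replicates 1, 2 and 3, an SD of 6.57 over the 3 lists. Each median is over the peaks that its list held, 5, 6 and 8, so this SD is not a spread of the same peaks over replicates. The width of the common peaks ran from 167 to 683 bp with a median of 379.5 bp, against 315.5 bp for the other non-histone peaks near a TSS.

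**Figure D3:**
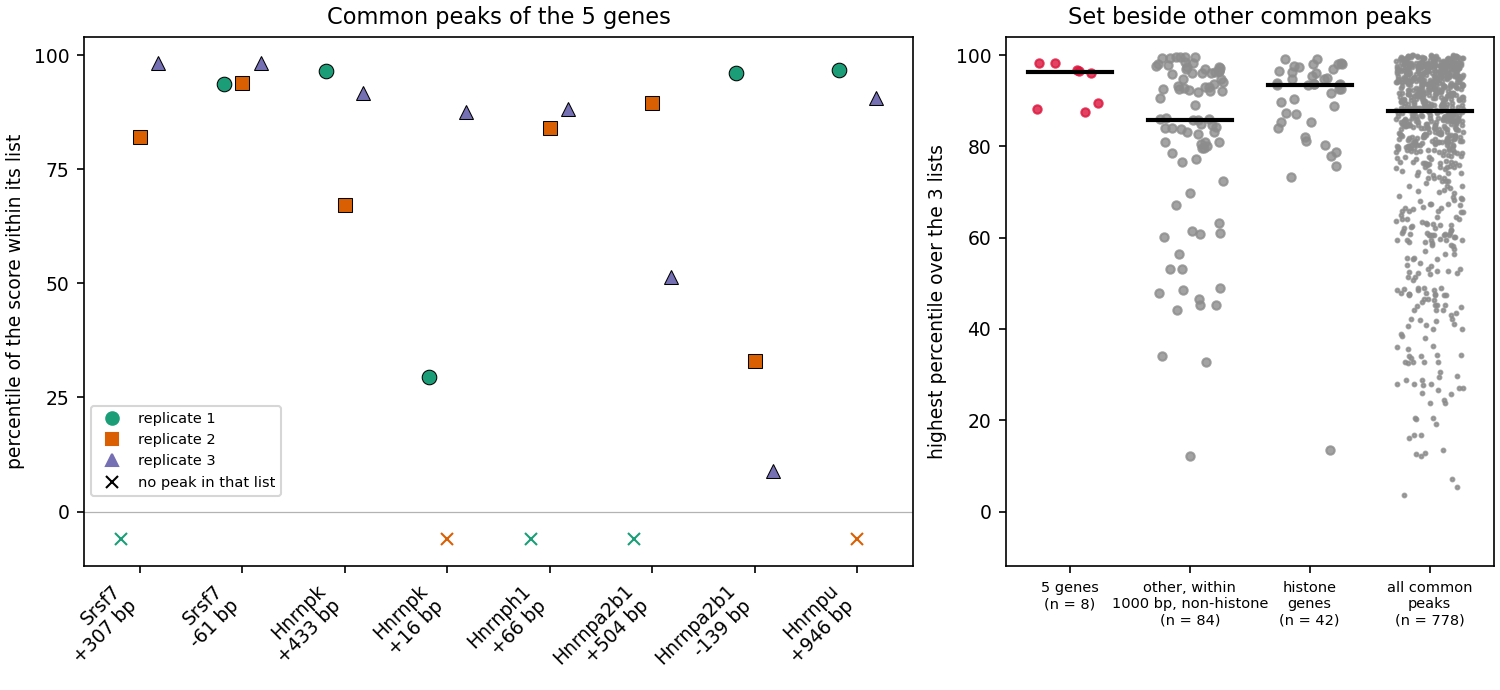
Left, percentile of the authors' score within its list (y axis) for the 8 common peaks, labelled by gene and distance from the TSS, with 1 symbol per replicate and a cross where a list has no peak. Right, the highest percentile over the lists for the same peaks, for other common peaks and for all 778, with the median as a line. At Srsf7 +307 bp the replicate 3 symbol is the start site peak again, and the right side includes it. The Srsf7 start site peak lies above 93 in every replicate, while the Hnrnpa2b1 peak at -139 bp runs from 8.87 to 96.1.

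Of 157 genes in 6 lists, 6 had a common peak to which they were nearest, at 5000 bp or less from the TSS (3.82%, exact Clopper-Pearson 95% interval 1.42 to 8.13%), against 0.712% of the 21900 protein-coding genes. The 5 genes above were chosen from these peaks, so this share is fixed in large part by the choice. Without them 1 of 152 genes had such a peak (0.658%, 0.0167 to 3.61%). The genes left out were those chosen for a peak, so this share is lowered by the same choice. It is therefore not compared with that of all protein-coding genes. By list, 4 of 31 hnRNP genes, 1 of 18 SR protein genes and 1 of 52 core spliceosome genes had such a peak. None was found for the exon junction complex (0 of 5), the SR protein kinases (0 of 7) and the alternative splicing regulators (0 of 44). Taken as 3 counts of the total, a count of 0 allows shares of up to 60%, 42.9% and 6.82%, and the upper ends of the exact intervals were 52.2%, 41.0% and 8.04%. These intervals and limits cover counting error only. With a 50% reciprocal overlap the number was 3 (Srsf7, Hnrnpk and Hnrnph1), with scores of 100 or more 1 (Srsf7), and with peaks in all 3 lists only 3.

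The remaining gene within 5000 bp was Sf1, which encodes the protein that recognises the branch point of introns. Its common peak lay on chromosome 19 from 6363807 to 6363988, 207 bp downstream of the TSS in exon 1 of 12 of a non-coding transcript. It scored 45.6 in replicate 1 and 52.4 in replicate 2, percentiles 39.1 and 63.1, with no peak in replicate 3. Its best percentile was below the lowest best percentile of the 8 peaks, 82.0 with each replicate peak counted once. Beyond 5000 bp, 5 further genes were the nearest gene of a common peak. The closest was Hnrnpm, an hnRNP gene, whose peak in intron 2 of 16 lay 10485 bp downstream of the TSS and scored 110, 80.7 and 46.8 in replicates 1, 2 and 3. An intergenic peak in a simple repeat lay 10528 bp upstream of Esrp1, an epithelial splicing regulator, with scores of 88.7, 40.04 and 53.8. Farther away came Mbnl2 (62440 bp), Srsf6 (68879 bp) and Qk (131633 bp), where the peaks at Mbnl2 and Srsf6 lay in LTR retrotransposons. The farthest of the 8 chosen peaks, at Hnrnpu, lay 946 bp from its TSS.

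**Figure D4:**
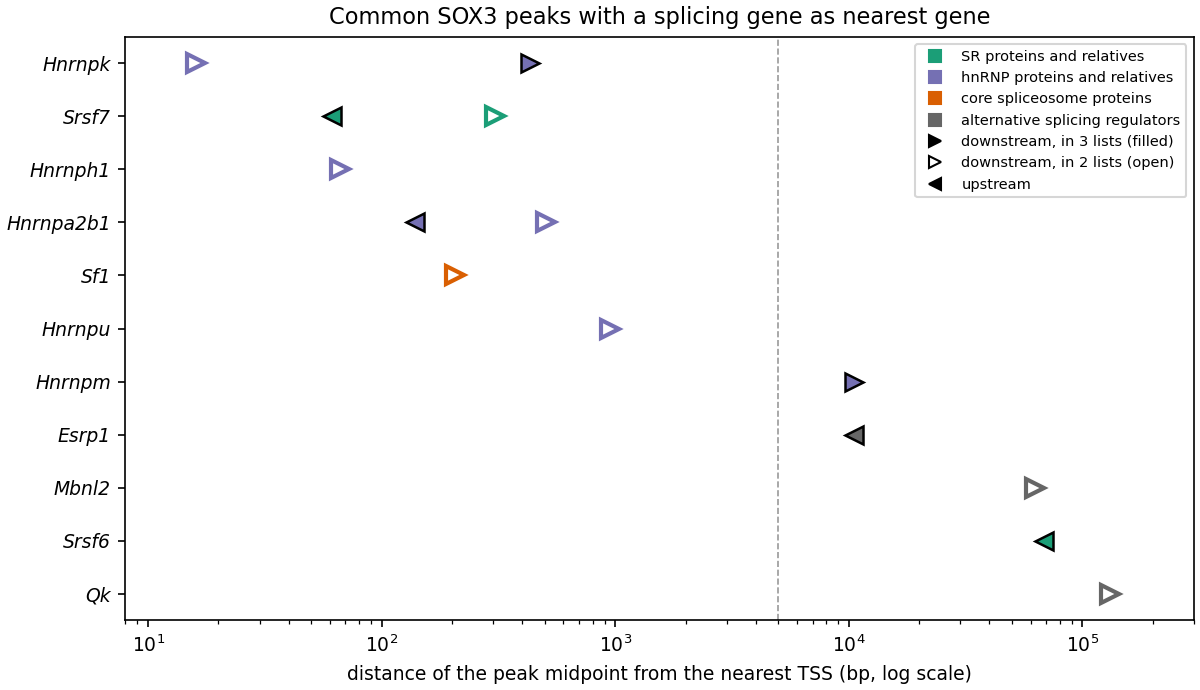
Common SOX3 peaks whose nearest gene is in a splicing list, by the size of the distance to the TSS (x axis, bp, log scale). Symbols point right for peaks downstream and left for peaks upstream of the TSS, are filled where the peak is in all 3 lists, and are coloured by gene list. Peaks of 6 genes lie left of the dashed line at 5000 bp, and those of 5 genes at 10485 bp or more.

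Genes with the most similar pattern were sought among 197 peaks of 168 other genes with the same 5000 bp limit, by the summed absolute difference of the score percentiles in the 3 lists, with 0 for an absent peak. Since only 3 samples enter, this is a description. The Srsf7 start site peak was closest to those of the histone gene Hist2h3c1 (summed difference 2.88) and of H3f3b, which encodes histone H3.3 (2.97). The H3f3b scores were 137, 133 and 249.6 in replicates 1, 2 and 3. Hnrnph1 was closest to Ubb, a polyubiquitin gene (2.18), with scores of 71.2 and 70.7 in replicates 2 and 3 and no peak in replicate 1, followed by Hist2h2ac (4.13). Hnrnpu was closest to 2700054A10Rik (1.73) and to Hist1h2ao (5.64). The Hnrnpk peak at its start was closest to Krt76, a keratin gene (8.69), and Atp6v0b, a subunit gene of the vacuolar proton pump (14.2). The start peak of Hnrnpa2b1 had no near match, with differences of 24.3 to Ints6, a gene of the Integrator complex, and 28.9 to 4933409K07Rik, both without a peak in replicate 3.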

How the data were processed

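The authors deposited 1 peak list per ChIP sample with a score per peak, and 1 table of peaks found in at least 2 samples. Per the file headers the annotation of that table came from HOMER (annotatePeaks.pl, mm9), which gives each peak's TSS distance in bp. The submitters' processing notes name Bowtie2 2.0.0 and the mm9 build. Neither the peak caller's settings nor the scale of the score is given in the sources used here. The score was used only within a list. The deposited score of the common table is 0 throughout and was not used. The read depth is unknown, and the input was not analysed here.

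A common peak was assigned to a list by an overlap of at least 1 bp (Python 3.11.15, pandas 2.3.3; checked with bedtools 2.31.1), with the highest score where several overlapped. The overlap and motif steps were tested on simulated data. Each TSS was rebuilt from peak midpoint, strand and deposited distance. Of 58 promoters with 2 or more common peaks, 50 gave the same site within 1 bp and 8 did not. Positions against a TSS rest on this rebuild. It gave Hnrnpk starts 343 bp apart, while the RefSeq table held 1 window for that gene. The 157 splicing genes all matched symbols of the RefSeq table for GRCm38.p6, used for names and neighbours. Genes named are the 5 chosen, list genes with a common peak, neighbours within 50000 bp of a chosen peak, and the 2 genes of most similar pattern for each. Histone genes were those whose symbol begins with Hist, H1f, H2af or H3f. Members, lists and motifs were chosen with earlier results of these data known, so no test across genes is given. The spread over replicates may be technical where samples share animals. Alternatives changed the overlap, score limit, windows, symbol match and replicates.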

Additional observations from a re-analysis of the deposited data

How the results depend on the processing

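Of 46 recomputed values, 28 stayed within 1.5 times the reported count or within 1 SD of the reported percentile, and 18 did not. That SD is over list medians of differing sets of peaks. With a 50% reciprocal overlap, 1 of the 8 peaks was in all lists, 3 near starts were in at least 2 lists, and 3 splicing genes had a common peak. Of all 778 common peaks, 155 were then in all lists and 662 in at least 2. With scores of 50 or more, 5 of the 8 stayed in at least 2 lists, against 452 of the 778. With 100 or more the counts were 1, 1 and 1, and 157 of the 778 stayed in at least 2 lists. With peaks in all 3 lists only, 3 splicing genes had one. Leaving out a replicate gave 3 to 6 of the 8 peaks in all remaining lists, and so the same 3 to 6 near starts in at least 2 lists. These counts are then 1 condition, and the 46 values hold both. It also gave 4 splicing genes each time, 20 to 24 replicate peaks around the genes and a median percentile of 87.9 to 91.8. Fewer lists make a peak in 2 lists rarer by construction. The replicate peaks around the genes numbered 20 within 10000 bp, 19 within 5000 bp and 11 with scores of 100 or more. With 100 bases before to 50 after the start, 0 genes held a SOX core. Counting each replicate peak once, and leaving out a replicate for the percentile, were chosen after seeing the data. No paired analysis was possible because the ChIP samples form 1 group and the input was not analysed here. Peak lists carry no read depth, so a missing peak may lie below the authors' threshold.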

Other observations

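The intervals of the common table were mostly copied from single lists. Of the 778 common peaks, 658 had exactly the start and end of a replicate peak and 120 did not. Of the 8 peaks at the splicing genes, 4 equalled a replicate 1 peak, 3 a replicate 2 peak and 0 a replicate 3 peak. The Srsf7 start site peak was the exception and ran from the first base of the replicate 2 peak to the last of the replicate 1 peak. The deposited TSS distances of these peaks therefore follow the replicate whose interval was kept. How the 658 split over the lists was not counted, so the 0 for replicate 3 is not read as particular to these genes.

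The double use of a replicate peak seen at Srsf7 also occurred elsewhere. Over all common peaks, 19 replicate peaks overlapped 2 or more common peaks, and 39 common peaks (5.01%) shared a replicate peak with another. With each replicate peak counted once, 764 of the 778 remained in at least 2 lists.

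The exact string TATAAA, searched for the TATA box on both strands, was in a window of 0 of the 5 splicing genes, against 15.7% of all genes of the RefSeq table. It was in 9 of the 58 other non-histone genes with a start site peak (15.5%) and in 20 of 32 histone genes with one (62.5%). The SOX core was in 22 of the 58 (37.9%) and in 13 of the 32 (40.6%). A TATA box of another spelling is missed by this string. The printed Srsf7 window holds tatataag near its end, so the 0 does not mean that these promoters lack a TATA box. No test was made on these shares.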
